A study of Mus musculus with 4 samples.

Results

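The genes described here are the SR proteins and the hnRNPs, 2 groups of RNA-binding proteins that steer splice site choice, in mouse heart. Their 34 genes were taken by name from the 21552 genes counted: 13 whose symbol starts with Srsf or that are Tra2a or Tra2b, 20 whose symbol starts with Hnrnp, and Pnisr, which entered because the table of splicing events lists it under an older name, Sfrs18. Of the 124326 alternative exons and splice sites listed for the series, 376 lie in these genes, and 239 of them had at least 10 reads in each library. Those 239 were 70 exons, 92 alternative 3′ splice sites and 77 alternative 5′ splice sites.

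Infarcts in C57BL/6 mice were made by permanently ligating the LAD, the left anterior descending coronary artery. Heart tissue labelled as remote area was taken from 2 infarcted mice, at 7 days after infarction by the series' title, and from 2 uninjured mice of the same strain. The uninjured tissue carries the same remote area label, and ages and sham surgery are not stated in the labels. Each mouse gave 1 library of polyadenylated RNA, sequenced as single reads of 50 bp, and the 4 libraries held 35715115 to 70885393 counts. From 36.7% to 48.4% of these counts lay in genes of the mitochondrial genome, and 0.200% to 0.277% lay in the SR protein and hnRNP genes. No strand setting is stated, so a read of one of these genes cannot be told apart from a read of an overlapping antisense gene.

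SR proteins carry 1 or more RNA recognition motifs and a tail rich in arginine and serine. Bound to exonic enhancers, they help the spliceosome to define exons, and kinases of the SRPK and CLK families phosphorylate the tail and so control where the proteins work. The hnRNPs coat nascent transcripts and often silence exons, and many of them also act in mRNA export, stability and translation. Genes of both groups commonly keep their own level in check by splicing in an exon, or an intron of the 3′ UTR, that sends the mRNA to nonsense-mediated decay.

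The most abundant mRNA was that of Hnrnpa2b1, which binds UAG-type motifs and works beside hnRNP A1. Levels are in CPM, read counts scaled by the TMM method to a common library size, and were divided by the length of each gene's principal transcript to compare genes. On that scale its mean level over the 4 libraries was 209 CPM per kilobase, the highest of the 34 genes. Srsf5 came next at 89.5 CPM per kilobase. Hnrnpa1 followed at 45.8, Hnrnpf at 44.7, Srsf2 at 41.3, Hnrnpl at 39.1, Hnrnph1 at 36.7 and Hnrnpc at 35 CPM per kilobase. These 6 levels lie close together, and the length assumed for a gene bears on its place. At the low end Srsf3 had 4.68, Hnrnpa3 1.75 and Hnrnpr 1.58 CPM per kilobase, the last from a principal transcript annotated at 21452 nt, so that its place depends on that length. Reads of multicopy genes such as Hnrnpa3, Hnrnpa1 and Srsf3, which have processed copies elsewhere in the genome, may be split or lost in counting, so their levels are uncertain. Srsf12 was nearly silent, with 5 and 6 counts in infarcted tissue against 1 and 2 counts in uninjured tissue, and did not enter the test.

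**Figure D1:**
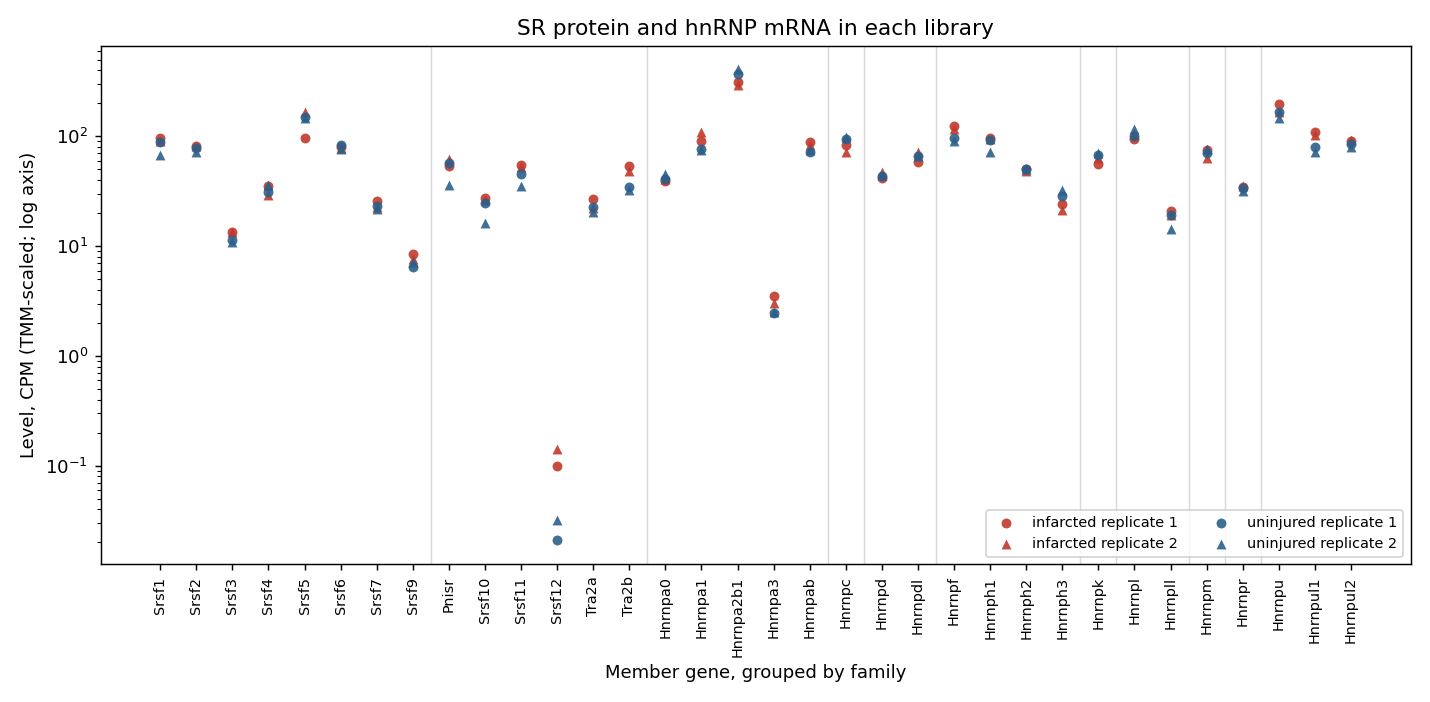
Level of each SR protein and hnRNP gene in each library, in CPM scaled by TMM on a log axis and not divided by gene length, with genes grouped by family and vertical lines between families. Infarcted libraries are red and uninjured ones blue, with circles for replicate 1 and triangles for replicate 2. Apart from Srsf12, the 4 symbols of a gene lie close together, and Hnrnpa2b1 is the highest in each library.

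The first question was whether the mRNA levels of these genes differed between the remote area of infarcted hearts and uninjured hearts. The summed level of the 34 genes was 2351 and 2360 CPM in infarcted replicates 1 and 2, and 2321 and 2254 CPM in uninjured replicates 1 and 2. Of 33 genes tested with edgeR's quasi-likelihood test over the whole table, 1 was called higher in infarcted tissue, at a Benjamini-Hochberg adjusted p below 0.05, and 0 were called lower. Over all 13905 genes tested, 18.3% were called higher and 14.6% lower. At an unadjusted p below 0.05, 2 of the 33 passed, against 42.8% of all genes tested, and DESeq2 likewise called 1 higher and 0 lower. The median log2 fold change of the 33 was 0.16, with a range from -0.41 to 0.61, beside a median of 0.02 over all genes tested. It lay above 0 in 21 and below 0 in 12.

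Separation between the groups was more frequent than calls. In 17 genes both infarcted libraries lay above both uninjured ones, and in 4 both lay below, whereas these orders occurred in 36.2% and 33.8% of all genes tested. With 2 mice a group, the standard error of a log2 fold change in these genes was near 0.2. Smaller differences than that could not be told from the spread between mice. Larger ones also went without a call, up to 0.48 in Hnrnpul1 (edgeR adjusted p = 0.065). Without the TMM scaling, with library totals as the scale, 14 of the 33 were called higher, but so were 31.5% of all genes, because that scale moved the median gene by 0.35 on the log2 scale. Removing a trend with transcript length, an alternative added after the data were seen, gave 4 genes called higher, against 18.5% of all genes.

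Tra2b was the gene called. It encodes transformer-2 beta, which binds GAA-rich exonic enhancers and promotes exon inclusion. Its level was 53.7 and 48.4 CPM in infarcted replicates 1 and 2, and 34.7 and 32.3 CPM in uninjured replicates 1 and 2, so the groups did not overlap. The log2 fold change was 0.61 ± 0.18 (SE, n = 2 and 2 mice), or 1.52-fold, with an edgeR adjusted p of 0.022. The call was lost without infarcted replicate 1, without infarcted replicate 2 and without uninjured replicate 2, and it was kept without uninjured replicate 1. Each of these fits leaves 1 mouse in a group, and each also called fewer of all genes. The paralog Tra2a had 27.1 and 22.2 CPM in infarcted tissue and 22.7 and 20.6 CPM in uninjured tissue, and its groups overlapped.

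The other SR-like genes lay above 0 as well, without a call. Together the 6 SR-like genes summed to 217 and 212 CPM in the infarcted libraries and to 186 and 141 CPM in the uninjured ones, where the lower of these 2 values belongs to replicate 2. Srsf11, known as p54, had 54.6 and 53.2 CPM in infarcted tissue, and 45.6 and 35.5 CPM in uninjured tissue. Its log2 fold change of 0.41 ± 0.19 (SE, n = 2 and 2) had an edgeR adjusted p of 0.120. Srsf10, an SR-like protein that can repress splicing when dephosphorylated, showed 27.6 and 26.2 CPM against 25.0 and 16.4 CPM. Pnisr overlapped between the groups, with 53.7 and 62.3 CPM in infarcted tissue and 57.5 and 36.4 CPM in uninjured tissue. In Srsf11, Srsf10 and Pnisr the lowest value was that of uninjured replicate 2.

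None of the 8 classical SR protein genes passed the edgeR test, and 0 of them had an unadjusted p below 0.05. Their summed level was 439 and 492 CPM in infarcted tissue, and 475 and 440 CPM in uninjured tissue, which overlap. Srsf5, the highest of them per kilobase, had 96.9 and 166 CPM in infarcted replicates 1 and 2, against 152 and 147 CPM in the uninjured libraries. Infarcted replicate 1 alone was low in this gene, and the sign of the difference depended on it: the log2 fold change was -0.18 ± 0.24 (SE, n = 2 and 2), and 0.074 without that library. Srsf6 was nearly level, at 80.4, 79.1, 83.8 and 77.0 CPM in infarcted replicates 1 and 2 and uninjured replicates 1 and 2. Srsf1, the founding member of the family, had 97.7 and 91.5 CPM in infarcted tissue and 89.4 and 67.9 CPM in uninjured tissue. Srsf2, also called SC35, had 81.7 and 82.2 CPM against 78.1 and 72.0 CPM. Srsf3, which also serves as an adapter for mRNA export, had 13.3 and 13.5 CPM against 11.3 and 10.9 CPM. Srsf9 showed 8.54 and 7.68 CPM in infarcted tissue and 6.45 and 7.20 CPM in uninjured tissue. In Srsf1, Srsf2, Srsf3 and Srsf9 the groups did not overlap and the infarcted libraries were higher, with log2 fold changes of 0.27, 0.13, 0.28 and 0.25. That order was found in 36.2% of all genes tested. Srsf7 (25.8, 22.6, 23.5 and 21.7 CPM in the same order of libraries) and Srsf4 (35.1, 29.4, 31.2 and 35.8 CPM) overlapped.

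Among the hnRNPs the differences went both ways: 11 of 20 log2 fold changes lay above 0, their median was 0.06, and 0 were called by edgeR, with 1 at an unadjusted p below 0.05. That gene was Hnrnpul1, a relative of hnRNP U that acts in the response to DNA breaks. It had 110 and 102 CPM in infarcted tissue against 79.6 and 72.6 CPM in uninjured tissue, a log2 fold change of 0.48 ± 0.19 (SE, n = 2 and 2) with an edgeR adjusted p of 0.065. Its adjusted p ran from 0.0043 with library totals as the scale to 0.432 without infarcted replicate 1. Hnrnpu itself, a large scaffold-attachment protein of the nucleus, had 197 and 166 CPM against 165 and 147 CPM. Hnrnpul2 had 91.0 and 92.7 CPM against 85.5 and 79.3 CPM. Both infarcted libraries lay above both uninjured ones in all 3 genes of the U group, an order found in 36.2% of all genes tested. In Hnrnpu the margin between the nearest libraries was under 1 CPM. With the transcript length trend removed, the log2 fold changes of Hnrnpu and Hnrnpul2 changed sign.

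The A/B group was split. Hnrnpa2b1, whose level exceeded that of any other gene here, was lower in infarcted tissue, at 312 and 296 CPM against 373 and 408 CPM, without overlap. Its log2 fold change was -0.36 ± 0.21 (SE, n = 2 and 2; edgeR adjusted p = 0.205). Hnrnpa1, an antagonist of SR proteins that binds UAG motifs in exonic and intronic silencers, was higher at 90.1 and 110 CPM against 77.0 and 74.6 CPM. This log2 fold change of 0.40 ± 0.19 (SE, n = 2 and 2) did not pass either, with an edgeR adjusted p of 0.130. Hnrnpab had 88.9 and 83.2 CPM against 72.7 and 76.0 CPM. Hnrnpa3, with 3.52 and 3.05 CPM against 2.44 and 2.53 CPM, was again higher in both infarcted libraries. Hnrnpa0 overlapped, at 39.4 and 40.9 CPM in infarcted tissue and 40.8 and 45.9 CPM in uninjured tissue.

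Genes of the F/H group, whose proteins bind runs of G, also differed in sign. Hnrnpf had 124 and 118 CPM in infarcted tissue and 96.5 and 91.0 CPM in uninjured tissue, a log2 fold change of 0.37 ± 0.19 (SE, n = 2 and 2; edgeR adjusted p = 0.152). Hnrnph3 lay the other way, at 24.3 and 21.5 CPM against 28.5 and 32.3 CPM, with a log2 fold change of -0.41 ± 0.19 (SE, n = 2 and 2; edgeR adjusted p = 0.121). Neither gene overlapped between groups. Hnrnph1 had 97.2 and 93.9 CPM against 92.7 and 72.3 CPM, and Hnrnph2 stayed between 48.3 and 50.8 CPM in the 4 libraries. The X-linked Hnrnph2 thus had a smaller spread between libraries than its relatives.

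Of the remaining hnRNPs, 2 were lower in both infarcted libraries, an order found in 33.8% of all genes tested. Hnrnpc, which binds U tracts and masks cryptic exons, had 84.2 and 72.4 CPM in infarcted tissue and 93.9 and 99.0 CPM in uninjured tissue. Hnrnpk, a KH-domain protein that binds C-rich RNA, had 56.6 and 64.2 CPM against 68.1 and 70.3 CPM. Their log2 fold changes were -0.30 and -0.20, with edgeR adjusted p-values of 0.239 and 0.437. Hnrnpll was higher, at 20.8 and 19.2 CPM against 19.1 and 14.4 CPM, as was Hnrnpr, at 34.8 and 35.2 CPM against 33.7 and 31.9 CPM. The groups overlapped for Hnrnpl, a CA-repeat binder with 94.1 and 106 CPM against 100.4 and 118 CPM, and for Hnrnpd, also called AUF1 and known for the decay of mRNAs with AU-rich elements, with 41.9 and 47.4 CPM against 43.5 and 44.4 CPM. Hnrnpdl (59.0, 72.4, 65.8 and 66.7 CPM, infarcted libraries first) and Hnrnpm (75.6, 63.2, 71.2 and 76.6 CPM) overlapped too.

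**Figure D2:**
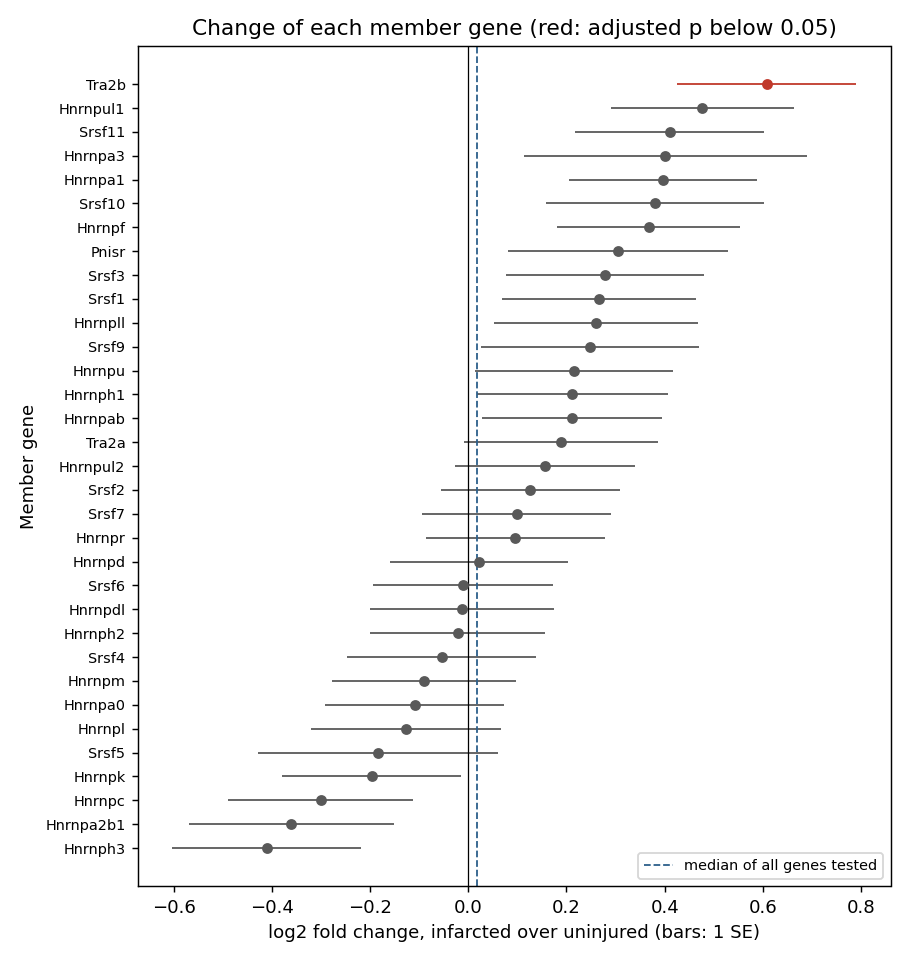
The log2 fold change of infarcted over uninjured tissue for the 33 tested genes, with bars of 1 SE, ordered by size. The solid line marks 0 and the dashed line the median of all genes tested, and Tra2b, in red at 0.61, is the gene with an adjusted p below 0.05.

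The mRNA levels of cell type markers differed between the groups as well. Markers of ventricular cardiomyocytes summed to 40384 and 36032 CPM in infarcted tissue against 63604 and 75356 CPM in uninjured tissue, and 7 of 10 were called lower. Fibroblast markers summed to 5842 and 5971 against 1549 and 1964 CPM, with 6 of 10 called higher. Activated fibroblast markers reached 2239 and 1538 against 160 and 186 CPM (6 of 7 higher), macrophage markers 642 and 670 against 240 and 212 CPM (12 of 12 higher), and markers of dividing cells 201 and 85 against 15.1 and 8.81 CPM (9 of 10 higher). Of 9 endothelial markers 0 were called by edgeR, with 2 at an unadjusted p below 0.05. Markers of smooth muscle and pericytes had 3 of 9 called higher and 1 lower, and lymphocyte markers, summing to under 8 CPM in each library, had 1 of 8 higher and 1 lower. Atrial markers summed to 303 and 2026 against 103 and 73.7 CPM, with 0 of 4 called by edgeR and 0 at an unadjusted p below 0.05, so infarcted replicate 2 stood apart in these. Every marker of these lists had counts in at least 1 library. The part of these differences in the levels of SR protein and hnRNP mRNA was not tested, and in such bulk tissue fewer cells of a type and less RNA per cell cannot be told apart.

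Genes that work with SR proteins and hnRNPs were examined through 7 lists, 123 tested genes in all. Of these, 3 were called higher and 7 lower by edgeR, beside 18.3% and 14.6% of all genes tested, and their median log2 fold change was 0.01. Among 12 kinases and phosphatases that act on these proteins, 0 were higher and 2 lower. These were Srpk3, a muscle-enriched SR protein kinase, with 15.9 and 16.1 against 21.9 and 27.3 CPM, and Dyrk1b with 14.8 and 11.4 against 21.7 and 27.4 CPM. Their log2 fold changes were -0.62 ± 0.20 and -0.90 ± 0.22 (SE, n = 2 and 2), with edgeR adjusted p-values of 0.0297 and 0.0066. The general SR kinases Srpk1 and Srpk2 had log2 fold changes of 0.01 and -0.14, and Clk1 and Clk4 had 0.09 and 0.04, none of which passed. For the 3 import receptors that carry SR proteins and hnRNPs into the nucleus, 0 were called by edgeR, and 0 had an unadjusted p below 0.05.

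Of 23 SR-related proteins, which have arginine-serine stretches but belong to neither family, 1 was higher and 1 lower, with a median log2 fold change of 0.22. The higher one was Srrm2, a scaffold of nuclear speckles, with 313 and 340 CPM in infarcted tissue against 223 and 192 CPM (log2 fold change 0.65 ± 0.21, SE, n = 2 and 2; edgeR adjusted p = 0.0282). Srrm4, best known as a neuronal regulator of microexons, was the lower one, at 12.3 and 9.39 against 23.7 and 19.9 CPM (log2 fold change -1.0 ± 0.21; edgeR adjusted p = 0.0035). Bclaf1 had a log2 fold change of 0.55 and an edgeR adjusted p of 0.0539.

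Relatives of the hnRNPs that carry other names gave the largest difference of these lists. Among 23 tested, 2 were called higher and 0 lower. Ptbp1, the polypyrimidine tract binding protein once named hnRNP I, had 89.2 and 71.3 CPM in infarcted tissue against 36.9 and 33.3 CPM in uninjured tissue. Its log2 fold change was 1.19 ± 0.19 (SE, n = 2 and 2; edgeR adjusted p = 6.4e-04). Its paralog Ptbp3 had 58.7 and 51.7 CPM against 33.1 and 24.8 CPM (log2 fold change 0.93 ± 0.20; edgeR adjusted p = 0.0037). For Ptbp2 the log2 fold change was 0.11 ± 0.23, without a call.

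The last 3 lists cover the core spliceosome, the exon junction complex and decay. Of 28 Sm and snRNP proteins 0 were called higher and 2 lower, the U4/U6.U5 proteins Snrnp27 and Txnl4a, at log2 fold changes of -0.67 and -0.78. The median of that list was -0.22. Of 17 genes listed as U2AF, SF1, SF3 and related factors, 2 were lower, U2af1l4 and Phf5a, both at -0.64, and the list's median was -0.17. For the 17 genes of the exon junction complex and of nonsense-mediated decay, 0 were called by edgeR, with 3 at an unadjusted p below 0.05 and a median of -0.03.

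The second question was whether the exons of the SR protein and hnRNP genes were used differently. In the 239 events with enough reads, 165 had under 5 reads of their less used form over the 4 libraries and could not be tested. These included 28 exons, of which 19 were included at over 95% in each library and 8 at under 5%. The other 74 events, 42 exons, 13 uses of 3′ splice sites and 19 of 5′ splice sites at 15 loci, were tested within all 9671 such events of the series. They lie in 24 of the 34 genes. Hnrnpa0, Hnrnpa1, Hnrnpa3, Srsf3, Srsf10, Srsf12 and Tra2b, 7 in all, had no event with 10 reads in each library, so no exon of the gene whose level was called was measured.

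Of the 74 events 0 were called by edgeR, the lowest adjusted p being 0.762, and 0.0% of all 9671 were. At an unadjusted p below 0.05 there were 5 of 74, all of them exons, against 6.38% of all events and 9.73% of all exons. The limma test on the logit of inclusion called 0 of the 74 as well, with 4 at an unadjusted p below 0.05. The groups did not overlap in 33 events, 15 with the infarcted libraries higher and 18 with them lower, beside 37.9% of all events, and in 8 the means also lay at least 10 points apart, beside 11.6%. The median size of the difference was 3.60 points in these events and 2.80 points in all events. Splice site uses at the same locus share reads, so 1 rises as another falls and the counts of events without overlap are not independent. Among the 42 exons alone, 22 did not overlap, 10 of them higher and 12 lower, beside 40.1% of all exons.

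The event with the smallest p was a 73-nt exon of Hnrnpa2b1 at chr6:51411982-51412054 on mm9, on the minus strand. GENCODE M21 has an exon of 136 nt with the same first base, which it places in the UTR of 1 coding transcript and in 2 transcripts marked for nonsense-mediated decay, and which 1 coding transcript skips. Inclusion was 67.2% and 53.6% in infarcted replicates 1 and 2, from 112 and 116 reads. In the uninjured libraries it was 92.2% and 88.1%, from 222 and 332 reads. The exact 95% binomial intervals, which cover counting error only, were 57.4% to 75.6% and 44.0% to 62.8% in the infarcted libraries, and 88.0% to 95.5% and 84.0% to 91.3% in the uninjured ones, so they did not touch between groups. The change in log2 odds was -2.57 ± 0.50 (SE, n = 2 and 2), with an unadjusted edgeR p of 0.0011 and an adjusted p of 0.762. The adjusted p ranged from 0.122 to 0.895 over the alternatives. As given above, the mRNA level of this gene was also lower in both infarcted libraries.

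Other exons of Hnrnpa2b1 differed less. Its 36-nt exon near the start of the coding sequence separates the longer B1 protein, which has the exon, from the shorter A2, and its 120-nt exon lies in the glycine-rich part of the protein. They are shown because the reads behind them are among the most numerous of these genes, at 485 to 1657 in a library.
Hnrnpa2b1 36-nt exon: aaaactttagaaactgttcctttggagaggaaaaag
Hnrnpa2b1 120-nt exon: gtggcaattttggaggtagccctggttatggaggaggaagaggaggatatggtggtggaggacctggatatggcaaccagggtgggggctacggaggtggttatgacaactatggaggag
Inclusion of the 36-nt exon was 6.38% and 6.25% in infarcted tissue and 7.49% and 8.48% in uninjured tissue, so most of the mRNA lacked it. For the 120-nt exon it was 77.3% and 69.3% against 81.9% and 79.8%. Both exons were lower in both infarcted libraries, with differences of -1.67 and -7.52 points between the means and edgeR adjusted p-values of 0.899 and 0.821.

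Srsf9 held the second smallest p. Its 79-nt exon at chr5:115781470-115781548 (mm9, plus strand) is coding in 1 GENCODE transcript and is skipped in another, and its length is not a multiple of 3.
Srsf9 79-nt exon: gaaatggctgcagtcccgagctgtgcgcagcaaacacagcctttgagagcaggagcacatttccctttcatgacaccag
Inclusion was 5.51% and 11.5% in infarcted replicates 1 and 2, against 26.9% and 26.7% in uninjured replicates 1 and 2, from 34 to 67 reads in a library. The 95% intervals reached up to 27.5% in infarcted replicate 2 and down to 15.5% in uninjured replicate 2, so they overlapped. The change in log2 odds was -2.03 ± 0.67 (SE, n = 2 and 2; edgeR unadjusted p = 0.018, adjusted p = 0.762).

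There were 3 further exons with an unadjusted p below 0.05. A 144-nt exon of Pnisr, at chr4:21801676-21801819 on mm9, was at 100% in both infarcted libraries and at 86.3% and 79.2% in the uninjured ones, from 10 to 23 reads. It matched no single internal exon of the annotation. The 10 and 14 infarcted reads, none of which skipped it, allow skipping of up to 30% and 21.4%. A 96-nt coding exon of Hnrnph3 was at 94.6% and 98.2% in infarcted tissue against 98.8% and 100% in uninjured tissue. Skipping of a 53-nt coding exon of Hnrnpm was seen in uninjured replicate 2 alone, at 68.0% inclusion, while the other 3 libraries were at 100%. That difference is thus one between libraries and not between the groups. A 36-nt coding exon of Hnrnpm, with an unadjusted p above 0.05, stood at 100% and 97.4% against 96.6% and 94.7%.

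**Figure D3:**
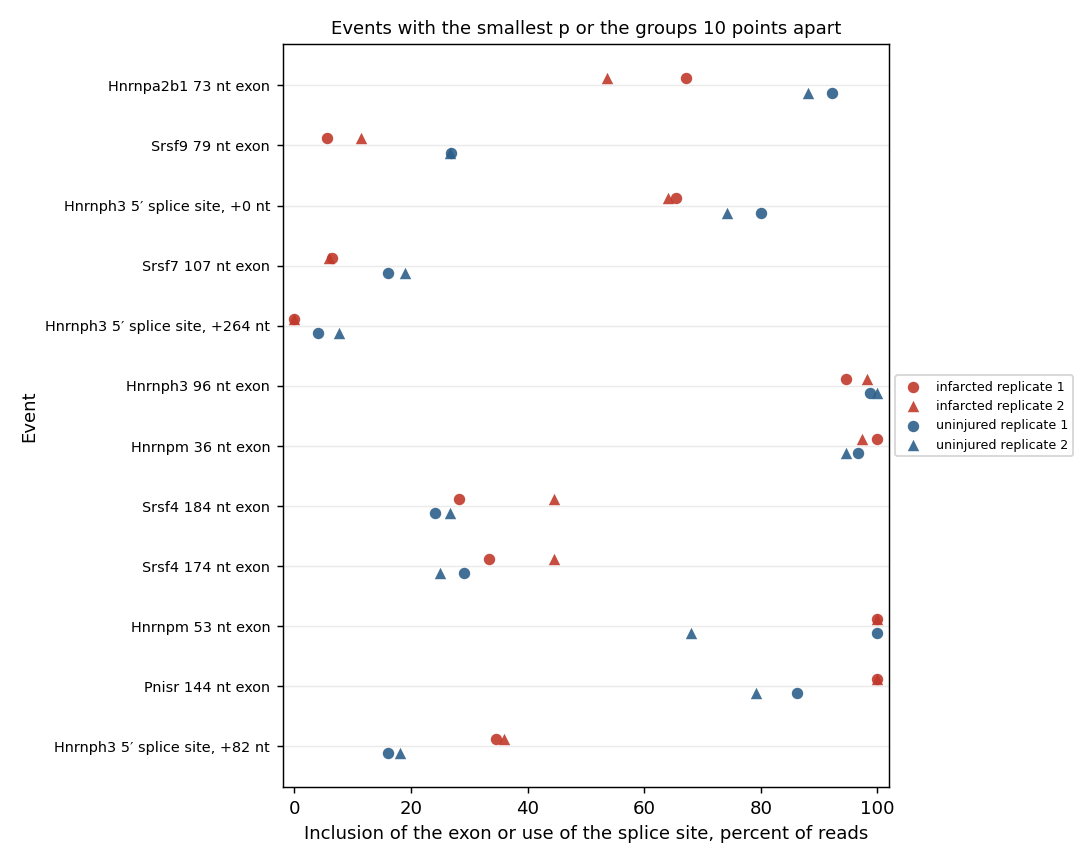
Percent inclusion of an exon, or percent use of a splice site, in each library for the 12 events that had the smallest p or whose groups lay at least 10 points apart without overlap. Red symbols are infarcted and blue uninjured libraries, with circles for replicate 1 and triangles for replicate 2. The Hnrnpa2b1 exon at the top has infarcted values of 67.2% and 53.6% and uninjured values of 92.2% and 88.1%.

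Hnrnph3, whose mRNA was lower in both infarcted libraries, also had competing 5′ splice sites. At 1 locus the first listed site took 65.4% and 64.0% of the reads in infarcted tissue and 80% and 74.2% in uninjured tissue. A site 82 nt further on took 34.6% and 36% against 16% and 18.2%, and one at 264 nt took 0% in both infarcted libraries against 4% and 7.58%. Only 25 to 66 reads per library lay behind these shares. A count of 0 in 25 or 26 reads allows a share of up to 12% or 11.5%, which is above the values seen in uninjured tissue. The uses of 1 locus are not independent, since they sum to the whole.

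Exons that lead to nonsense-mediated decay were looked at as a set, because SR protein and hnRNP genes are known for them. GENCODE M21 has 8 of the tested exons in a transcript marked for decay and in no coding transcript, with a coding transcript that skips them. Those of Hnrnpdl and Hnrnpl are each also in a transcript marked as neither, and the 107-nt exon of Srsf7 was matched through another listed boundary to an annotated exon of 460 nt with the same first base. For 6 of these, the exon is printed from its first base to the stop codon of the decay transcript, which is in capitals, to show how soon translation would end.
Srsf7 107-nt exon: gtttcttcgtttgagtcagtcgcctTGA
Srsf9 358-nt exon: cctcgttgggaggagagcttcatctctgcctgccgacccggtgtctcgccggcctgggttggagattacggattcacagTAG
Srsf11 109-nt exon: ttcttttccctggttcagccTGA
Srsf11 117-nt exon: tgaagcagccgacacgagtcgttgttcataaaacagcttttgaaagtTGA
Hnrnpl 70-nt exon: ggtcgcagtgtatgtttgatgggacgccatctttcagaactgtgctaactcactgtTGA
Hnrnpll 83-nt exon: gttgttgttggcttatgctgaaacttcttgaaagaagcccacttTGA
The stop ends at base 23 of the 109-nt exon of Srsf11, at base 28 in Srsf7 and at base 82 in Srsf9. For the 105-nt exon of Hnrnpdl and the 71-nt exon of Hnrnpd the stop of the decay transcript lies outside the exon.

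None of these 8 exons was called by edgeR, and 0 had an unadjusted p below 0.05. Inclusion was lower in both infarcted libraries in 3 and higher in 2, while 40.1% of all 5353 tested exons did not overlap between the groups, 904 of them higher and 1241 lower. The Srsf7 exon was at 6.49% and 5.88% in infarcted tissue against 16.1% and 18.9% in uninjured tissue, but from only 18 to 41 reads in a library (edgeR unadjusted p = 0.125, adjusted p = 0.808). The Srsf9 358-nt exon was at 9.37% and 9.80% against 17.6% and 16.7%, and the Hnrnpl exon at 4.64% and 5.84% against 8.17% and 10.3%. Both Srsf9 exons described here thus had lower inclusion in each infarcted library than in either uninjured one. The Hnrnpdl exon lay the other way, at 23.8% and 16.3% against 8.97% and 11.3%, as did the 109-nt exon of Srsf11, at 7.53% and 8.70% against 4.35% and 0%, where 0 of 18 reads allows up to 16.7%. The 117-nt exon of Srsf11 was at 18.4%, 32.3%, 29.0% and 24.4% in infarcted replicates 1 and 2 and uninjured replicates 1 and 2, the Hnrnpll exon at 4.35%, 14.0%, 9.26% and 15.2%, and the Hnrnpd exon at 2.71%, 2.37%, 1.56% and 2.63%. Those 3 overlapped. Since decay removes the mRNAs that hold such exons, these percentages describe the mRNA that was left and not how often the exon was spliced in.

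In Srsf4 the 174-nt and 207-nt exons of a cluster each matched an exon of a decay transcript, by length and 1 intron only. No annotated skipping form was matched. The 174-nt exon at chr4:131442046-131442219 (mm9) was at 33.3% and 44.4% in infarcted tissue and at 29.0% and 25.0% in uninjured tissue. A 184-nt exon of the same gene, which matched no single internal exon of the annotation, was at 28.2% and 44.4% against 24.1% and 26.7%. For the 207-nt exon of the cluster the values were 22.2% and 58.3% against 26.7% and 24.1%. Infarcted replicate 2 was the highest library for all 3, with 13 to 19 reads, and the exons may share reads. The smallest edgeR adjusted p among them was 0.889.

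Forms that coexist at high levels were measured with more reads. The paralogs Hnrnpd, Hnrnpab and Hnrnpdl each have an alternative coding exon in the tail of the protein, a multiple of 3 in length, and the exons are shown together because they look alike.
Hnrnpd 147-nt exon: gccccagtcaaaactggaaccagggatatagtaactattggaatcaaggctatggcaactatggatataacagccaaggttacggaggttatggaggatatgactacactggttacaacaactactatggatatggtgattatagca
Hnrnpab 141-nt exon: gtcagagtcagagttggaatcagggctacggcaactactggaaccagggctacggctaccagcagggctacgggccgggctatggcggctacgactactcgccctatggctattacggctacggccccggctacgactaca
Hnrnpdl 171-nt exon: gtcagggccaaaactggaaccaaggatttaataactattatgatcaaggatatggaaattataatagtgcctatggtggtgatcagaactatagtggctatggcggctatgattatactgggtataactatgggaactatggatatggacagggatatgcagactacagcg
In global alignments the Hnrnpd and Hnrnpdl exons shared 62.0% of aligned columns, Hnrnpab and Hnrnpd 58.8%, and Hnrnpab and Hnrnpdl 54.4%, while the pairs that these exons formed with the 120-nt exon of Hnrnpa2b1, a 187-nt exon of Srsf1 and the 139-nt exons of Hnrnph1 and Hnrnph3 shared 42% to 49.7%.

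Despite their likeness, the 3 exons were used to different extents. Inclusion of the Hnrnpd exon was 40.1% and 48.9% in infarcted tissue and 54.9% and 48.1% in uninjured tissue, from 213 to 348 reads in a library. The Hnrnpab exon was at 29.9% and 23.5% against 23.0% and 21.6%, from 446 to 590 reads. The Hnrnpdl exon was nearly always included, at 96.8% and 97.7% against 100% and 97.9%. In each library the order was Hnrnpdl, then Hnrnpd, then Hnrnpab. The edgeR adjusted p between infarcted and uninjured tissue was 0.899 for Hnrnpd and 0.907 for Hnrnpab.

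Hnrnph1 and Hnrnph3 share a 139-nt coding exon that is closer still, with 126 identical bases in 139 aligned columns, or 90.6%. Its length is not a multiple of 3, so skipping it shifts the frame.
Hnrnph1 139-nt exon: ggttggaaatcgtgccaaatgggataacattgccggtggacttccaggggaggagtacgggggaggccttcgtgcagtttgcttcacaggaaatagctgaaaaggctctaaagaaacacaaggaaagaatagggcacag
Hnrnph3 139-nt exon: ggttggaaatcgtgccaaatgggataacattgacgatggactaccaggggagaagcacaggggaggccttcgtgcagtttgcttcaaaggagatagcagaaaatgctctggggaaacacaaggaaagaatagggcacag
In Hnrnph1 it was included at 95% and 97.8% in infarcted tissue and 96.7% and 97.2% in uninjured tissue, from 161 to 240 reads. In Hnrnph3 the values were 89.8% and 69.1% against 78.0% and 83.0%, from 104 to 236 reads, so skipping was more frequent in Hnrnph3 in each library. Both overlapped between infarcted and uninjured tissue, with edgeR adjusted p-values of 0.975 and 1. Reads of 50 bp that lie within this exon may fit either gene.

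A second exon of Hnrnpd, of 57 nt, was at 64.5%, 81.8%, 69.0% and 69.0% in infarcted replicates 1 and 2 and uninjured replicates 1 and 2, so the infarcted libraries lay on both sides of the uninjured ones. Of Srsf7, which has an RNA recognition motif and a zinc knuckle, a 36-nt coding exon was at 78.8%, 78.5%, 81.1% and 73.7% in the same order.
Srsf7 36-nt exon: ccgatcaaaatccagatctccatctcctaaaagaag
This exon is shown because it is the shortest of those at a middle level. At a 5′ splice site of Srsf5, the site 130 nt further on took 44.6% and 57.8% of reads in infarcted tissue and 56.7% and 50.3% in uninjured tissue. In Hnrnpul1 the site at 106 nt took 80.6% and 78.8% against 69.7% and 82.5%. All 4 overlapped between the groups.

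Hnrnpc had 3 competing 3′ splice sites, of which 1 set infarcted replicate 2 apart from infarcted replicate 1. The site 24 nt from the first took 0% of 143 reads in infarcted replicate 1, which allows up to 2.10%, and 47.4% of 106 reads in infarcted replicate 2, against 14.9% and 20.4% in the uninjured libraries. The site at 3 nt took 72.7% and 34.2% against 61.5% and 50.3%, and the first site 27.3% and 18.4% against 23.6% and 29.3%. The spread between the 2 infarcted mice was thus wider than any difference between the groups at this locus.

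None of the remaining tested events had an edgeR unadjusted p below 0.05. Tra2a had 2 pairs of nearby sites with groups that did not overlap: the 3′ site listed 3 nt from the first took 88.6% and 90.9% in infarcted tissue against 93.1% and 96.3%, and a 5′ site at 6 nt took 94.3% and 90.9% against 79.3% and 88.9%, both from 27 to 35 reads and with the same number of reads in each library, so that they may share them, at edgeR adjusted p-values of 0.889 and 0.851. In Srsf1 the 187-nt coding exon was at 96.4% and 96.6% against 95.3% and 93.8%. A 104-nt UTR exon of Srsf2 was at 3.81% and 3.04% against 6.33% and 4.98%, and a 165-nt exon of Srsf6 at 12.2% and 14.6% against 19.4% and 6.76%. Of these exons only the one of Srsf6 overlapped between the groups, and its uninjured libraries were the highest and the lowest of the 4. A 497-nt exon of Hnrnpl was at 30% and 22.4% in infarcted tissue against 21.9% and 12.8%, and a 169-nt exon of Hnrnpr at 44.9% and 52.8% against 50.2% and 42.4%. At a 5′ site of Srsf7 the site 24 nt further on took 54.3%, 28.2%, 62.1% and 34.4% in infarcted replicates 1 and 2 and uninjured replicates 1 and 2, with 18 to 34 reads, so mice of a group differed more than the groups did.

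Exons with nearly 1 form were well covered in several genes. The 182-nt exon of Hnrnpu was included at 100% in each library, with at least 524 reads, and so were the 281-nt and 72-nt exons of Hnrnpl, with at least 149 and 182 reads, the 154-nt exon of Hnrnpm, with at least 142, and the 90-nt exon of Srsf4, with at least 92. At the other end, the 226-nt exon of Hnrnpa2b1 was at 1.49%, 0.74%, 3% and 0% in infarcted replicates 1 and 2 and uninjured replicates 1 and 2, and the 132-nt exon of Hnrnpll at 0% in each.

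**Figure D4:**
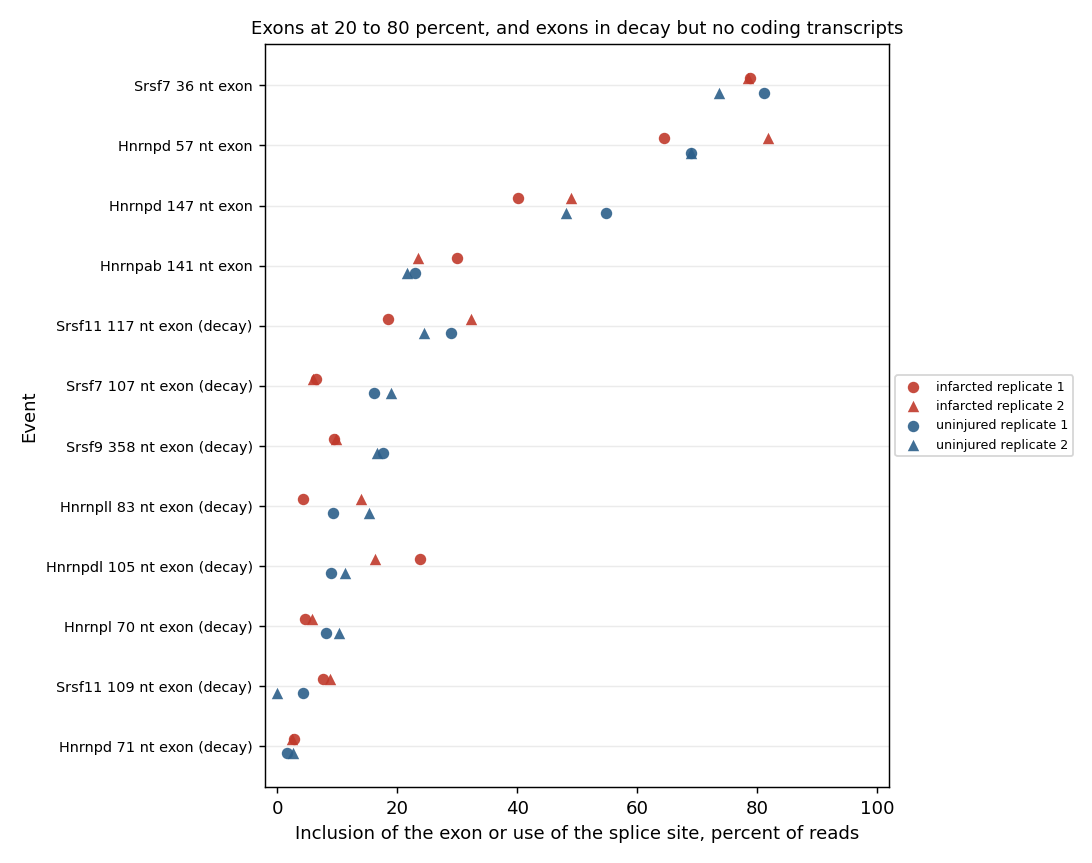
Percent inclusion in each library of the tested exons named for coexisting forms, at the top, and of the 8 exons that GENCODE M21 has in a decay transcript and in no coding one, marked as decay. Infarcted libraries are red, uninjured ones blue, circles replicate 1 and triangles replicate 2. The Srsf7, Srsf9 and Hnrnpl decay exons have both infarcted values below both uninjured ones, and the Hnrnpdl exon and the 109-nt Srsf11 exon have them above.

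Lastly, exon lengths were compared, since a coding exon can keep the reading frame only if its length is a multiple of 3. Of the 9 tested exons whose means lay between 20% and 80% in both groups, 7 (77.8%) were a multiple of 3 in length, as were 66.9% of the 937 such exons of the series. Over all 42 tested exons of these genes it was 17 (40.5%), against 49.2% of all tested exons. Among the 28 exons with nearly 1 form only, 16 (57.1%) were a multiple of 3, against 38.9%. Length alone does not show that the protein is kept. Of the 7 exons at 20% to 80%, the Srsf11 117-nt and the Srsf4 174-nt and 207-nt exons matched decay transcripts and no coding one. The 117-nt and 207-nt exons each hold the stop of a decay transcript. The 57-nt exon of Hnrnpd is UTR in some coding transcripts.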

How the data were processed

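Per the labels, polyadenylated RNA of 4 mouse hearts was sequenced; the replicates are separate mice by the series' design. The authors deposited raw counts per Ensembl gene, with no normalization, and a table of splicing events that gives percent inclusion and the corrected reads of each form. Event coordinates use mm9, per the submitters' processing notes. Aligner, counter, annotation, event caller and strand setting: not given in the sources used here. Deposited percent values equalled 100 times inclusion reads over all reads within 0.05 points in 100% of values with 10 reads.

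Identifiers were joined to GENCODE M21 (20450 of 21552 genes had a symbol). Genes were tested with edgeR 4.0.16 in R 4.3.3 (quasi-likelihood F-test, TMM, filterByExpr, robust dispersions), over 13905 genes, with Benjamini-Hochberg adjustment. Events were tested if each library had 10 reads and each form at least 5 reads in all, by the edgeR quasi-likelihood interaction of form and group with a term per library, on rounded reads. Standard errors came from the log2 fold change over the square root of F. Alternatives used DESeq2 1.42.0, limma 3.58.1 (0.5 reads added to each form for the logit), other scalings and filters, the replicate number as a block, and left out each library. The common biological coefficient of variation was 19.3%, and the fit had 2 residual degrees of freedom. The gene and event tests were run on simulated data, in which the event reads had counting error but no further variation between mice.

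Member exons were matched to GENCODE M21 by gene, exon length and intron lengths, without converting coordinates: 47 of 70 by both introns, 6 by 1 intron, 3 through another listed boundary, and 14 to no single exon. First and last exons of transcripts were not searched, and an exon that fitted more than 1 annotated exon counted as unmatched. Exon sequences are those of GENCODE M21 transcripts (GRCm38). Transcript length is that of the APPRIS principal transcript for levels per kilobase, and that of the longest transcript for the length trend. Named were the called genes, the 5 with the highest CPM, genes with a named event, up to 3 genes a partner list with the smallest p, the 8 events with the smallest p, events 10 points apart without overlap, and up to 10 events between 20% and 80%; other genes and exons were named after their values were seen. The genes, lists and rules were chosen with earlier results of these data known.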

Additional observations from a re-analysis of the deposited data

How the results depend on the processing

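Leaving out 1 library leaves 1 mouse in a group, assumed to vary like those of the other, and often ended or added calls. The number of SR protein and hnRNP genes called higher was 14 with library totals as the scale, 4 with the transcript length trend removed (added after the data were seen), and 0 to 3 when 1 library was left out. Partner genes called higher were 33 with library totals, 5 with the replicate number as a block, and 0 to 10 without 1 library, and those called lower were 2 with library totals and 0 to 10 without 1 library. Over all genes, 4386 were called higher and 786 lower with library totals, and 102 to 2144 higher and 8 to 1824 lower without 1 library. The block moved no other count of calls by over 1.5 times. No label ties the same-numbered mice, so the numbers were not taken to pair them. Over genes, the deviations of the replicate 1 libraries from their group means correlated at 0.076. With 2 libraries a group those of replicate 2 mirror them, so this value cannot settle whether the mice are paired. Events called in these genes were 0 under each alternative, and over all events 4 were called when 1 read of the minor form was enough. Of 76 single values, 27 changed sign under some alternative; the cause was not tested. With library totals the log2 fold change was 0.18 in Srsf5, 0.23 in Hnrnpl, 0.042 in Hnrnpc, 0.15 in Hnrnpk, 0.34 in Hnrnpdl, 0.34 in Srsf6, 0.25 in Hnrnpm, 0.24 in Hnrnpa0, 0.29 in Srsf4, 0.32 in Hnrnph2 and 0.30 in Tnpo3, each below 0 with TMM. With the length trend removed it was 0.088 in Hnrnpdl, -0.033 in Hnrnpu, -0.005 in Hnrnpul2, 0.008 in Hnrnpa0, -0.24 in Hnrnpd, -0.14 in Hnrnpr, 0.19 in Magoh and -0.061 in Tnpo1. Leaving out 1 library gave log2 fold changes from -0.65 to 0.074 in Srsf5, -0.19 to 0.049 in Hnrnpdl, -0.10 to 0.044 in Srsf6, -0.30 to 0.007 in Hnrnpm, -0.26 to 0.042 in Srsf4, -0.042 to 0.30 in Tra2a, -0.082 to 0.16 in Srsf7, -0.096 to 0.029 in Hnrnpd and -0.096 to 0.47 in Tnpo1. It gave log2 odds changes from -0.30 to 1.02 in the 57-nt exon of Hnrnpd, -0.23 to 0.44 in the 36-nt exon of Srsf7, -0.72 to 0.057 and -1.29 to 1.08 at the first and second 3′ sites of Hnrnpc, -0.25 to 0.51 at the first 5′ site of Srsf5 (-0.51 to 0.25 at the other) and -0.23 to 0.78 at the 106-nt site of Hnrnpul1 (-0.78 to 0.23 at the other). Among the tested events of these genes the median of the fewest reads in a library was 58, against 40 over all events.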
